A study of Mus musculus with 6 samples.

Results

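The integrated stress response was followed through 9 genes, Atf4, Atf5, Ddit3, Chac1, Trib3, Ppp1r15a, Asns, Sesn2 and Ddit4, in primary mouse embryo fibroblasts. The genes were chosen by name, as regulators and targets of the pathway, with earlier results of these data known. Each is read by every probe set (a group of short array probes for 1 transcript) annotated with its symbol alone, which gave 15 of the 45101 probe sets. The brightest probe set of a gene gives its value and the others serve as a check. All 9 genes passed the filter on dim signals and stand among 12918 genes tested. The 2 cultures each came from a single ICR mouse embryo (an outbred stock) of embryonic day 15.5, and each was measured on 1-colour Affymetrix arrays in 3 groups: HS+LPS (heat shock at 42 °C for 1 h, then lipopolysaccharide at 1 μg/ml for 4 h), LPS (lipopolysaccharide at 1 μg/ml for 4 h) and Control (37 °C, no agent). None of the 6 arrays came from cells given heat alone, so HS+LPS against LPS shows heat in the presence of LPS. Values are scaled linear signal intensities, a mean ± SD is over both cultures (n = 2 in every group), and the number of arrays limits the precision.

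In the integrated stress response, kinases that sense unfolded protein, lack of amino acids, lack of haem or viral RNA phosphorylate the translation factor eIF2alpha. Most protein synthesis then falls, while the mRNAs of ATF4 and a few other factors are translated better. ATF4 binds C/EBP-ATF response elements and switches on genes for amino acid supply and further regulators such as CHOP (encoded by Ddit3), and GADD34 (encoded by Ppp1r15a) brings a phosphatase to eIF2alpha and ends the response. The arrays measure mRNA only, so neither eIF2alpha phosphorylation nor ATF4 protein is seen. In bulk RNA, fewer cells that express a gene and less RNA of it per cell cannot be told apart.

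The promoters of 4 members are shown. Chac1 and Asns hold the core of the C/EBP-ATF response element. Ppp1r15a and Ddit3 lack it and are among the genes with the largest differences. An Atf5 promoter that holds another searched motif is not shown. Each sequence is the 250 bases before the annotated start, 5′ to 3′ on the strand of the gene. The source is RefSeq on build GRCm38.p6, and capitals mark matches to the motifs. Chac1 lies at chr2:119350992-119351241 on the plus strand, Asns at chr6:7693210-7693459 on the minus strand, Ppp1r15a at chr7:45526269-45526518 on the minus strand and Ddit3 at chr10:127290543-127290792 on the plus strand.
Chac1 promoter: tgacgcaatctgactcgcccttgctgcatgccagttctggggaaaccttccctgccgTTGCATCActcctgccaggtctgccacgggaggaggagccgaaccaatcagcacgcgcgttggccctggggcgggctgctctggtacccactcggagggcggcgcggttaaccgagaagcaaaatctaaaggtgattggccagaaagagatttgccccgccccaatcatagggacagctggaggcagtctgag
Asns promoter: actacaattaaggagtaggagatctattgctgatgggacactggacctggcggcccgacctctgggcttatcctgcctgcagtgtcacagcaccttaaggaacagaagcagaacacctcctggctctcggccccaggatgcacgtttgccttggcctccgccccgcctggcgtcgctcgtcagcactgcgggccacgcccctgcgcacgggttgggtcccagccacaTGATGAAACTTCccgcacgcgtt
Ppp1r15a promoter: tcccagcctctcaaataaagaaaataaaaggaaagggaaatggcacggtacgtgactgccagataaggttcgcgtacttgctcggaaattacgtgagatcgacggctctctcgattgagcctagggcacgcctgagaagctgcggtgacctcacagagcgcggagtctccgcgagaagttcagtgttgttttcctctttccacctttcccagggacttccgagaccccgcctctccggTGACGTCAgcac
Ddit3 promoter: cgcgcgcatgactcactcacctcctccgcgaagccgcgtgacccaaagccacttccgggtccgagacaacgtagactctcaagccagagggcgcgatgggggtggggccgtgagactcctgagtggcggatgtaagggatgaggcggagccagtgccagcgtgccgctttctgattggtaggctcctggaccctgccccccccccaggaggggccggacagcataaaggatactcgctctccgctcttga

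The core of the C/EBP-ATF response element was searched as TGATGNAA on both strands. It was found in the promoters of Chac1, 193 to 186 bases before the start and on the other strand, and of Asns, 23 to 16 bases before the start. These were 2 of the 10 promoter windows of the 9 members (Atf5 has 2 starts), and 3.45% of all 32851 promoter windows of the same length held the motif. The cAMP response element TGACGTCA, present in 1.55% of all windows, was found in Ppp1r15a, 12 to 5 bases before the start. Inverted repeats of the heat shock element unit were searched, also on both strands, as GAANNTTC, present in 6.69% of all windows, and TTCNNGAA, present in 7.17%. GAANNTTC matched in Asns, 19 to 12 bases before the start, where it overlaps the C/EBP-ATF match, and TTCNNGAA in 1 of the 2 Atf5 windows. None of the 4 motifs matched in the windows of Ddit3, Atf4, Trib3, Sesn2 or Ddit4, which says only that these letters are not in these windows.

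Genes known to answer heat and LPS moved with the treatments. Hspa1a, the inducible Hsp70, averaged 4984 ± 63.1 in HS+LPS against 62.4 ± 8.003 in LPS, and the chemokine Cxcl10 509.6 ± 115 in LPS against 9.54 ± 2.39 in Control. All 12 fibroblast markers were above the noise level on every array. Of the leukocyte, endothelial, epithelial, skeletal muscle and neural markers on the array, 5 of 8, 3 of 7, 2 of 7, 3 of 7 and 5 of 6 were, and Itgam, Pecam1, Tie1, Cdh1, Myh3 and Snap25 were at noise on all 6. The summed endothelial signal was 74.6 and 109.6 in HS+LPS, 43.6 and 98.3 in LPS and 70.1 and 78.0 in Control (cultures 1 and 2). The summed epithelial signal was 102 and 141 in HS+LPS, 54.9 and 105 in LPS and 56.7 and 71.0 in Control. The summed muscle signal was 449 and 385 in HS+LPS, 316 and 264 in LPS and 355 and 312 in Control. The summed neural signal was 2215 and 1467 in HS+LPS, 1855 and 1214 in LPS and 1932 and 1320.1 in Control. Within each culture these 4 sums were highest in HS+LPS, as were Ppp1r15a, Chac1 and Sesn2. A sum is led by its brightest gene, which was Stmn2 in the neural list (948 to 1577) and Acta1 in the muscle list (180 to 377). Taken per tested gene, the median log2 difference of HS+LPS from Control was -0.22 for neural markers, beside -0.09 for all genes. It was 0.11 for endothelial, 0.97 for epithelial and 0.22 for muscle markers. The leukocyte and fibroblast sums were not highest in HS+LPS in both cultures. The summed leukocyte signal was 213 and 162 in HS+LPS, 244 and 146 in LPS and 257 and 151 in Control. The summed fibroblast signal was 28998 and 36451.5 in HS+LPS, 29081 and 34680 in LPS and 27582 and 39718 in Control. The part of any of these cell types in the results was not tested.

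HS+LPS against LPS asks how prior heat shock altered the pathway in LPS-treated cells. The members did not move together. Ppp1r15a and Chac1 rose more than 2-fold, while Ddit3 and Atf4 were lower in both cultures. In the limma fit of the 3 groups 2 of the 9 members rose, 0 fell and 7 did not pass an adjusted p of 0.05, beside 1.34% of all genes called in either direction. In a second fit the culture was a block, which removes the difference in level between the 2 embryos. There 3 rose (Ppp1r15a, Chac1 and Sesn2), 2 fell (Ddit3 and Atf4) and 4 did not pass, beside 18.9% of all genes called (6.32% higher and 12.6% lower). The median log2 difference of the members was -0.02, and that of all genes -0.05.

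**Figure D1:**
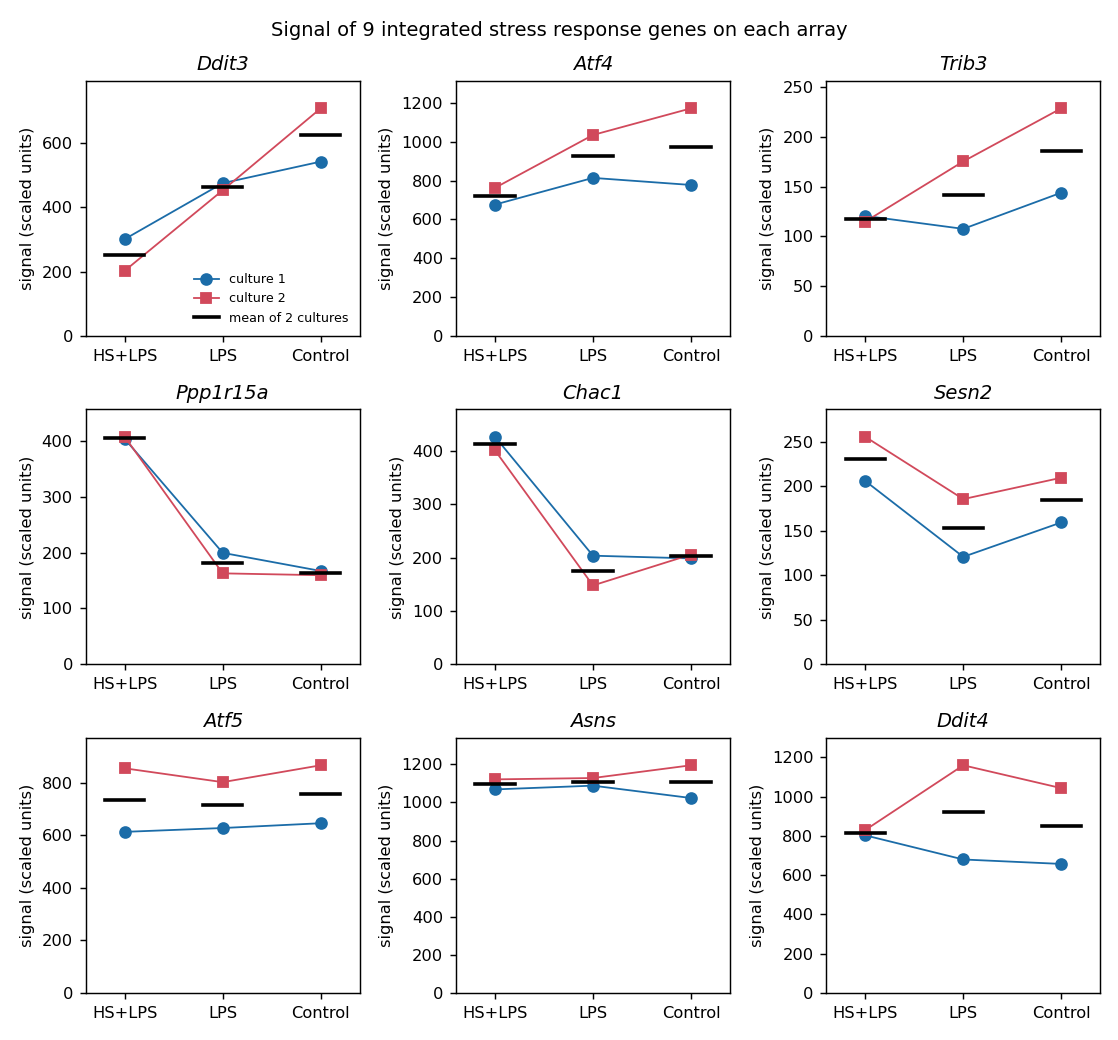
Signal in scaled linear units of the brightest probe set of each of the 9 genes, by group. Points joined by lines are the 2 cultures and black bars their means. Both HS+LPS arrays are highest for Ppp1r15a (403 and 407) and Chac1 (426 and 401) and lowest for Ddit3 (301 and 203).

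Ppp1r15a encodes the stress-induced subunit that brings protein phosphatase 1 to eIF2alpha. It read 403 and 407 in HS+LPS, 199 and 163 in LPS and 167 and 159 in Control (cultures 1 and 2). The HS+LPS arrays were the highest and did not overlap the others, and the LPS and Control arrays overlapped. HS+LPS was 2.22-fold higher than LPS (log2 difference 1.15, SE 0.15, limma adjusted p = 0.0306; with the block 0.000252). Without the block, leaving out any of the 6 arrays ended the call (adjusted p 0.0710 to 0.207), with log2 differences of 1.01 to 1.30. Its constitutive relative Ppp1r15b averaged 420.3 ± 108 in HS+LPS and 315 ± 70.7 in LPS, with overlapping arrays (log2 difference 0.41, adjusted p with the block 0.0193, without it 0.476).

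Chac1 encodes an enzyme that breaks down glutathione and is a known ATF4 target. Its signals were 426 and 401 in HS+LPS, 204 and 148 in LPS and 199 and 206 in Control. Both HS+LPS arrays lay above all the others. HS+LPS was 2.35-fold higher than LPS (log2 difference 1.24, SE 0.18, limma adjusted p = 0.0431; with the block 0.000423), by 1.05 in culture 1 and 1.42 in culture 2. Leaving out any of the 6 arrays ended the call without the block (adjusted p 0.0870 to 0.207; log2 differences 1.01 to 1.46). Its relative Chac2 averaged 149.8 ± 50.6 in HS+LPS and 151 ± 7.99 in LPS and passed in neither fit.

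Ddit3 encodes CHOP, a transcription factor that favours cell death in prolonged stress. It read 301 and 203 in HS+LPS, 475 and 453 in LPS and 542 and 708 in Control. The 3 groups did not overlap, with HS+LPS lowest. HS+LPS was 1.87-fold lower than LPS (log2 difference -0.90, SE 0.23, limma adjusted p = 0.131; with the block 0.0103), and the difference was -0.65 in culture 1 and -1.15 in culture 2. A second, dim probe set of Ddit3 (8.38 to 39.0 over all arrays) went the other way on average, at 33.1 and 23.6 in HS+LPS and 39.0 and 10.1 in LPS, and did not pass (log2 difference 0.39, adjusted p with the block 0.459). The mean of both Ddit3 probe sets had a log2 difference of -0.25 from LPS and -0.23 from Control in HS+LPS, and passed in neither comparison without the block.

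Trib3 encodes a pseudokinase induced by ATF4 and CHOP that restrains both. It read 121 and 115 in HS+LPS, 108 and 175 in LPS and 144 and 229 in Control. HS+LPS and LPS overlapped, and the cultures went opposite ways between them, by 0.16 in culture 1 and -0.60 in culture 2. The difference passed in neither fit (log2 difference -0.22, 95% interval with the block -0.63 to 0.20). The other Trib3 probe set read 107 and 111 in HS+LPS, 114 and 167 in LPS and 115 and 247 in Control. Its relative Trib1, a pseudokinase that helps destroy C/EBP proteins, rose 2.83-fold, to 157 ± 2.52 in HS+LPS against 53.4 ± 6.18 in LPS (limma adjusted p = 0.0482; with the block 0.00144). Trib2 averaged 199.8 ± 21.8 in HS+LPS and 366 ± 57.6 in LPS and fell only with the block (log2 difference -0.86, adjusted p with the block 0.000642, without it 0.0766).

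Atf4 encodes the central transcription factor. It read 676 and 762 in HS+LPS, 814 and 1035 in LPS and 777 and 1172 in Control. Both HS+LPS arrays lay below all LPS and Control arrays, by a small margin for culture 2 of HS+LPS against culture 1 of Control. HS+LPS was 1.28-fold lower than LPS (log2 difference -0.35, SE 0.23, limma adjusted p = 0.504; with the block 0.0422). Without LPS culture 2 the difference was -0.18. A further probe set of Atf4 had a log2 difference of -0.41 (adjusted p = 0.484; with the block 0.0241), and the remaining one, at 1.03 to 2.54, was under the noise level on all 6 arrays.

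Atf5 encodes a relative of ATF4 whose mRNA is also translated better when eIF2alpha is phosphorylated. It read 614 and 856 in HS+LPS, 628 and 803 in LPS and 647 and 867 in Control. Culture 2 was higher in each group, and the groups overlapped. The log2 difference between HS+LPS and LPS was 0.03 (95% interval with the block -0.15 to 0.20). Asns encodes the enzyme that makes asparagine and is a standard readout of ATF4 activity. It read 1068 and 1121 in HS+LPS, 1088 and 1128 in LPS and 1023 and 1195 in Control, with overlapping groups. Its log2 difference was -0.02 (95% interval with the block -0.19 to 0.16), an interval that does not reach the difference measured for Chac1.

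Sesn2 and Ddit4 encode stress-induced inhibitors of the growth kinase complex mTORC1. Sesn2 read 206 and 255 in HS+LPS, 121 and 186 in LPS and 159 and 209.5 in Control. The HS+LPS arrays lay above the LPS arrays and overlapped Control. HS+LPS was 1.52-fold higher than LPS (log2 difference 0.60, SE 0.26, limma adjusted p = 0.317; with the block 0.00809). Without the block the difference was 0.30 when LPS culture 1 was left out and 0.91 when LPS culture 2 was. The dimmer of its 2 probe sets gave a difference of 0.28 that did not pass (adjusted p = 0.608; with the block 0.166). Ddit4 read 803 and 830.2 in HS+LPS, 680.1 and 1160.2 in LPS and 657 and 1044 in Control. Its cultures lay far apart in LPS and Control and close together in HS+LPS, inside the range of the other groups. Its log2 difference from LPS was 0.24 in culture 1 and -0.48 in culture 2 and passed in neither fit (adjusted p with the block 0.618). Its relative Ddit4l averaged 614 ± 159 in HS+LPS and 362 ± 9.22 in LPS and rose only in the blocked fit (adjusted p 0.0136, without the block 0.156).

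**Figure D2:**
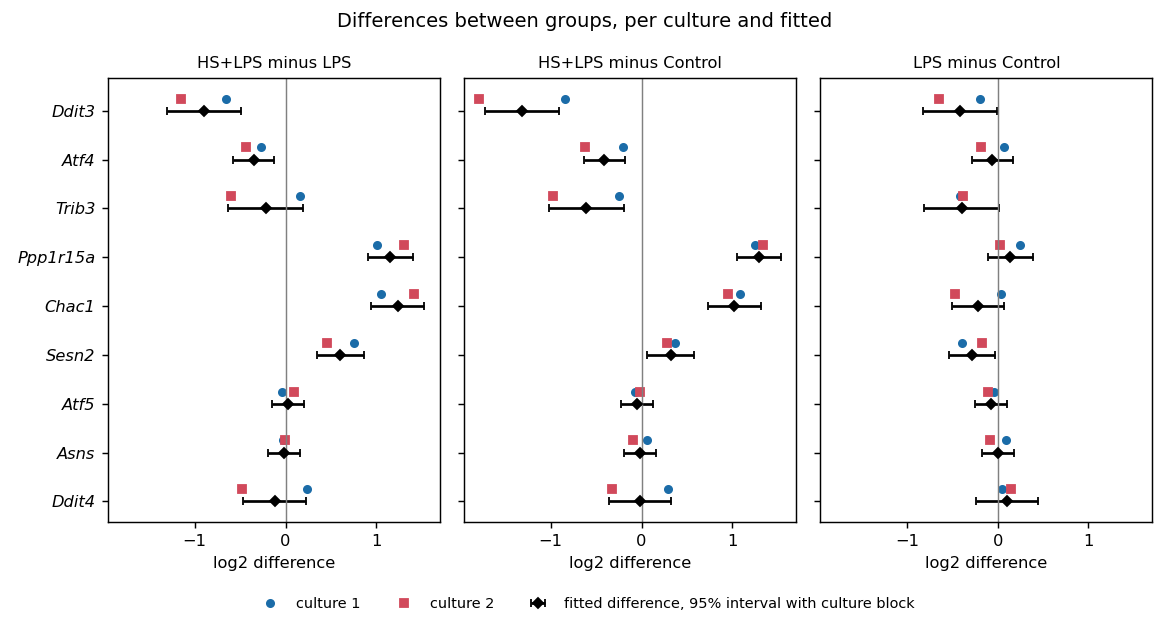
Log2 differences (x axis) of the 9 genes (rows) in the 3 comparisons (panels). Blue circles and red squares are cultures 1 and 2, and black diamonds the fitted differences with 95% intervals from the fit with the culture as a block. Between HS+LPS and LPS, Ppp1r15a and Chac1 lie at 1.15 and 1.24 and Ddit3 at -0.90, while Asns and Atf5 lie at -0.02 and 0.03.

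HS+LPS against Control compares doubly treated with untreated cells and shares the HS+LPS arrays with the comparison above. Ppp1r15a and Chac1 were again higher and Ddit3 and Atf4 lower. Without the block 0 of 9 members passed in limma, beside 0.178% of all genes called. The adjusted p was 0.0517 for Ppp1r15a, 0.0835 for Ddit3 and 0.0871 for Chac1. An unadjusted p under 0.05 was found for 3 members, beside 16.2% of all genes. Ppp1r15a did pass without the block with a pseudocount of 16 (adjusted p = 0.0382), a filter at the 60th percentile (0.0483) or median centring (0.0396). With the block 2 rose and 2 fell, beside 17.2% of all genes (5.09% higher and 12.1% lower). Ppp1r15a was 2.45-fold higher in HS+LPS than in Control (log2 difference 1.29, adjusted p with the block 0.000284) and Chac1 2.03-fold higher (1.02, adjusted p with the block 0.00170). Ddit3 was 2.49-fold lower (log2 difference -1.31, adjusted p with the block 0.00241), with differences of -0.84 in culture 1 and -1.79 in culture 2. The Atf4 difference was -0.41 (adjusted p with the block 0.0260, without it 0.449), and, in fits without the block, -0.70 when Control culture 1 was left out and -0.11 when Control culture 2 was. The further Atf4 probe set above noise passed in neither fit here (log2 difference -0.33, limma adjusted p with the block 0.0550, without it 0.595). Trib3 did not pass, at 118 ± 4.07 in HS+LPS and 186 ± 59.9 in Control without overlap (log2 difference -0.61, adjusted p with the block 0.0508; -0.94 without Control culture 1 and -0.28 without Control culture 2), nor did Sesn2 (0.32, adjusted p with the block 0.0874).

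LPS against Control asks whether the stimulus alone engaged the pathway. In limma 0 of the 9 members passed, beside 0.147% of all genes called, and with the block again 0 passed, beside 2.78% of all genes. Without the block 0 members had an unadjusted p under 0.05, beside 4.87% of all genes. With the block 2, Ddit3 and Sesn2, had one, beside 15.4% of all genes. Log2 differences ran from -0.41 for Ddit3 to 0.14 for Ppp1r15a. Ddit3 averaged 464 ± 15.6 in LPS and 625 ± 117 in Control, without overlap (95% interval with the block -0.82 to -0.0067, adjusted p 0.315). The 95% interval with the block was -0.51 to 0.07 for Chac1, -0.11 to 0.39 for Ppp1r15a and -0.17 to 0.18 for Asns.

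The 7 tested relatives of the members (Sesn1, Sesn3, Ddit4l, Trib1, Trib2, Chac2 and Ppp1r15b) had a median log2 difference of 0.21 between HS+LPS and LPS, beside -0.05 for all genes, and 1 rose and 0 fell without the block, against 3 and 1 with it. Beside these and the following counts for HS+LPS against LPS stand the shares of all genes called, 1.34% without the block and, with it, 6.32% higher and 12.6% lower. Among targets of ATF4 and CHOP other than the members, 15 of 17 were tested, and between HS+LPS and LPS 2 rose and 0 fell without the block, while 2 rose and 2 fell when it was used. Their median log2 difference was 0.16. The risers were Atf3, a stress-induced transcription factor, at 2082 ± 15.3 in HS+LPS against 28.5 ± 8.78 in LPS (log2 difference 6.06, limma adjusted p = 0.000605), and the vascular growth factor Vegfa, at 694 ± 5.42 in HS+LPS against 201 ± 46.1 in LPS (1.79, adjusted p = 0.0399). Both are known to be induced through other pathways too. Ero1a, an oxidase of the endoplasmic reticulum induced by CHOP, averaged 534 ± 123 in HS+LPS and 945 ± 46.3 in LPS and fell only in the blocked fit (-0.84, adjusted p 0.000871, without the block 0.101). Between LPS and Control 0 of these targets passed without the block, beside 0.147% of all genes called. With the block 3 rose and 0 fell, beside 2.78% of all genes called (266 genes higher and 93 lower). Among the 3 targets that rose were the transcription factor Cebpb (0.70, adjusted p with the block 0.0102, without it 0.846) and Ero1a (0.64, adjusted p with the block 0.0111, without it 0.688).

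No gene of the metabolic lists of ATF4 rose in either fit between HS+LPS and LPS. Of 14 tested genes for amino acid synthesis and one-carbon metabolism, 0 passed without the block and 4 fell with it (median -0.14, beside -0.05 for all genes). Cth, which makes cysteine, averaged 169.5 ± 18.7 in HS+LPS and 236 ± 11.6 in LPS (log2 difference -0.47, adjusted p with the block 0.0145, without it 0.229). Shmt2, a mitochondrial enzyme of serine and glycine metabolism, had a log2 difference of -0.45 (adjusted p with the block 0.00659, without it 0.202). Of 11 amino acid transporters (median -0.13) 0 passed without the block, and with it 1, Slc38a7, fell (-0.54, adjusted p with the block 0.0488, without it 0.225). Of 20 genes for tRNA charging and export (median -0.05) 0 passed without the block, and 3 fell with it, including the tRNA exporter Xpot (-0.39, adjusted p with the block 0.0374, without it 0.279). With the block 12.6% of all genes were lower, and the shares of the transporter and tRNA lists that fell lie near it.

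Upstream of the members, 18 genes for eIF2 kinases, eIF2, its exchange factor eIF2B and its phosphatase were tested. Between HS+LPS and LPS 0 passed without the block, and 3 rose and 2 fell with it (median 0.12), beside 6.32% of all genes higher and 12.6% lower. Eif2b2, a subunit of eIF2B, averaged 794 ± 16.03 in HS+LPS and 507 ± 10.7 in LPS (log2 difference 0.64, adjusted p with the block 0.00101, without it 0.0566). Eif2b4, another subunit, averaged 145 ± 3.92 in HS+LPS and 223 ± 18.2 in LPS (-0.60, adjusted p with the block 0.00823, without it 0.176). Of 20 genes of the XBP1 and ATF6 branches of the unfolded protein response, 0 passed without the block and with it 4 were higher and 3 lower (median 0.14), beside the same 6.32% and 12.6% of all genes. The chaperone Hyou1 averaged 154 ± 6.06 in HS+LPS and 90.2 ± 33.0 in LPS (0.79, adjusted p with the block 0.0331, without it 0.218). The ubiquitin ligase Syvn1 averaged 174 ± 41.3 in HS+LPS and 268 ± 11.5 in LPS (-0.63, adjusted p with the block 0.00718, without it 0.196). Between HS+LPS and Control, Atf3 rose (log2 difference 6.03, adjusted p = 0.000626), and 0 other genes of the 7 lists passed without the block, beside 0.178% of all genes called. With the block 4 other ATF4 and CHOP targets rose and 0 fell, and 3 relatives of the members rose and 2 fell. For the eIF2 list 2 rose and 1 fell, and for the XBP1 and ATF6 list 2 rose and 3 fell. In the synthesis and transporter lists 1 gene each fell and 0 rose, and in the tRNA list 0 passed. Of all genes 5.09% were higher and 12.1% lower with the block.

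**Figure D3:**
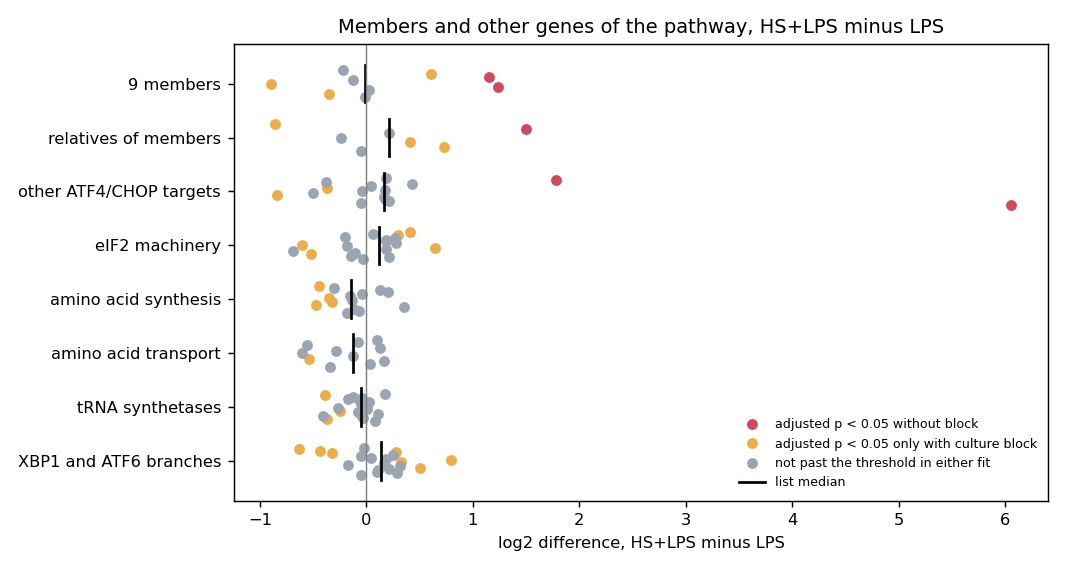
Log2 difference between HS+LPS and LPS of each tested gene, by list. Red points passed without the block, yellow points with the culture block alone and grey points in neither fit, and black bars are list medians. Atf3 lies highest at 6.06.

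Genes with the most similar pattern were found as the smallest root mean square difference of log2 signal over the 6 arrays, after each gene's own mean was subtracted. For Ppp1r15a, which spanned 1.33 on the log2 scale, they were Zfp703, Dnaja1 and Dennd1b, at distances of 0.0925, 0.0952 and 0.0957. For Chac1 they were Arhgef26, Mirg and Dock8 (0.0924, 0.117 and 0.127), and for Ddit3 Bicdl1, Spg20 and Zkscan16 (0.113, 0.114 and 0.132). No member was among the 3 nearest genes of another member. With only 3 taken from the 12918 genes tested, that outcome was likely beforehand, and it does not show whether members vary together.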

How the data were processed

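The arrays measured biotin-labelled cRNA, per the labels' protocols. The deposited files hold 1 linear intensity for each probe set of each array; the authors' software was not given in the sources used here. Every array had the same 2% trimmed mean (100.001), so no further scaling was applied. Tests used log2(intensity + 3.37), the 25th percentile of the deposited values, which understates folds of dim genes. Control probe sets (64) and those below the 40th percentile of average log2 signal were dropped, and the brightest probe set with a single symbol stood for a gene. Noise was the brightest of 27 Bacillus subtilis control probe sets (6.00 to 7.67 by array), and all members' main probe sets exceeded it on all 6 arrays.

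All 3 groups entered 1 limma fit (version 3.58.1, R 4.3.3, trended eBayes), checked on simulated data, and p-values were adjusted over all genes by Benjamini-Hochberg. Adjusted p-values of the other probe sets came from a separate fit of every single-symbol probe set above the filter, adjusted over those probe sets. In that fit the main Chac1 probe set had a limma adjusted p of 0.0535 for HS+LPS against LPS without the block. Numbers in the labels pair the arrays because equal numbers mark the culture of the same embryo, and deviations from group means correlated at 0.54 for HS+LPS and LPS, 0.57 for HS+LPS and Control and 0.62 for LPS and Control. P-values rest on 2 cultures. Members, lists and motifs were chosen with earlier results of these data known. Of the lists, up to 4 called genes were named, or else 2 called with the block; Ppp1r15b, Chac2, Trib2 and Ddit4l, and Ero1a between HS+LPS and LPS, were named after their values were seen. Symbols came from the platform annotation, and all 9 members matched RefSeq. Alternatives were the pseudocount, filter, scaling, probe set rule, variance trend, arrays in the fit and the block.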

Additional observations from a re-analysis of the deposited data

How the results depend on the processing

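Genes called for HS+LPS against LPS, HS+LPS against Control and LPS against Control, in that order, numbered 173, 23 and 19 as reported. With the culture as a replicate block they numbered 2443, 2219 and 359, and, in alternatives added after seeing the data, 2116, 1811 and 349 with block and quantile normalization and 2410, 2280 and 488 with block and median centring. They numbered 84, 13 and 5 without the intensity trend and 76, 14 and 0 with only the 2 groups compared. For HS+LPS against Control they numbered 58 with a pseudocount of 16, 37 with a filter at the 60th percentile and 59 with median centring. Leaving out 1 array gave 8 to 76, 8 to 14 and 0 to 4. Ppp1r15a and Chac1 kept their direction for HS+LPS against LPS in every alternative, and lost their call without the trend, with only 2 groups and without any 1 array, Chac1 also with no filter. Signs that turned under other probe set rules were, for LPS against Control, Atf4 (0.010 as the mean of probe sets, 0.077 by another), Ddit3 (0.028 and 0.47) and Sesn2 (0.027 by the other). For Ddit3 the dim probe set gave 0.39 against LPS and 0.86 against Control in HS+LPS, and the mean of probe sets -0.25 and -0.23, and for Asns the mean and the other probe set gave 0.0050 and 0.028 against LPS and 0.068 and 0.15 against Control. Median centring gave -0.0020 for Asns in LPS against Control, with or without the block. Without 1 array the sign turned for members that had not passed, with log2 differences for LPS against Control of -0.35 to 0.24 for Atf4, -0.29 to 0.14 for Atf5, -0.44 to 0.011 for Chac1, -0.0038 to 0.28 for Ppp1r15a, -0.11 to 0.11 for Asns, -0.58 to 0.022 for Sesn2 and -0.28 to 0.48 for Ddit4. For HS+LPS against LPS they were -0.21 to 0.27 for Atf5, -0.56 to 0.13 for Trib3, -0.052 to 0.017 for Asns and -0.51 to 0.26 for Ddit4, and for HS+LPS against Control -0.29 to 0.19 for Atf5, -0.13 to 0.097 for Asns and -0.35 to 0.31 for Ddit4. Causes were not tested. With 2 cultures, 3 residual degrees of freedom without the block and 2 with it limit every test, and signals near noise carry little information. The limma p-values and intervals also borrow an estimate of the spread from all genes. They therefore rest on more than the residual degrees of freedom of the gene itself.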

Other observations

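Levels of the stress genes are given here by culture. Culture 2 was higher than culture 1 for 6 of 9 members in HS+LPS, 6 of 9 in LPS and 8 of 9 in Control, beside 49.4%, 52.0% and 52.0% of all genes in the same groups. The median log2 difference of the members, culture 2 minus culture 1, was 0.05 in HS+LPS, 0.35 in LPS and 0.39 in Control. The difference between cultures was not tested.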
